A study of Mus musculus with 12 samples.

Results

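Genes whose RNA differed between uteri with progesterone receptor isoform A overexpressed in smooth muscle and uteri carrying only the Cre driver are described here, across all genes measured. Of the 12 libraries of mouse uterine tissue sequenced, 8 make this comparison. The 4 control libraries had the genotype Myh11Cre, and the 4 PGR-A OE libraries had the genotype Myh11Cre; LSLPGRA/+. The other 4, PGR-B OE, had the genotype Myh11Cre; LSLPGRB/+, and they entered the fit and are set beside genes that changed in PGR-A OE. Every animal thus carried Myh11Cre, the controls included, and all tissue was taken at 13.5 dpc (days post coitum). Age is not given in the sources used here, and the labels do not say that replicates were separate animals, so p-values measure the spread between these samples, which may be technical.

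The progesterone receptor is a steroid receptor that enters the nucleus, binds DNA and changes transcription of nearby genes. Its gene, Pgr, gives a pair of isoforms from separate start sites: isoform B is the full-length protein, and isoform A lacks its amino-terminal stretch. Progesterone keeps the myometrium, the muscular wall of the uterus, quiescent in pregnancy, and the balance of the isoforms has been tied to the change to contraction at labour. Myh11 encodes the smooth muscle myosin heavy chain, so a Cre driven by it acts in smooth muscle of vessels as well as of the uterine wall. The libraries were made from uterine tissue, which can also hold decidua, glands, vessels, stroma and immune cells, and in such samples fewer cells of a type and less RNA per cell cannot be told apart.

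The sequences shown next belong to members that the results turn on, as RefSeq gives them for the build GRCm38.p6, and each is written 5′ to 3′ on its gene's strand. Hhatl, which encodes a relative of the enzyme that attaches fatty acid to hedgehog proteins, had the firmest rise, and its upstream window lies at chr9:121792508-121792757 on the minus strand. A window of 250 bases before the annotated start is printed without capitals, since the motif searched for below was not found in it.
Hhatl: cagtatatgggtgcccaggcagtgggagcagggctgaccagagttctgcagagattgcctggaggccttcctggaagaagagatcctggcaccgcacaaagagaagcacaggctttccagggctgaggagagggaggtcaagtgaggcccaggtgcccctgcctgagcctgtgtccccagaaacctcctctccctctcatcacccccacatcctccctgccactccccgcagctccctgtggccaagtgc

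Col4a3 and Col4a4 encode chains that assemble with each other into the collagen IV network of basement membranes. They are transcribed away from each other, and both rose. The 71 bases between their annotated gene starts, at chr1:82586850-82586920, are printed on the minus strand, the strand of Col4a4, and 69.0% of them are G or C.
Col4a4 and Col4a3: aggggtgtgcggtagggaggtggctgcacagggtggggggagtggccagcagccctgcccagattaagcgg

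Serpina1a, Serpina1b and Serpina1c, which rose, and Serpina1e, which fell, are copies of the gene for alpha-1-antitrypsin, the liver-type protease inhibitor. A stretch before the RefSeq start of Serpina1e (chr12:103956898-103957017, minus strand) recurs letter for letter before the RefSeq starts of the other copies. It runs over 62 bases before Serpina1a (chr12:103863621-103863682), 68 before Serpina1b (chr12:103738190-103738257) and 69 before Serpina1c (chr12:103904951-103905019), all on the minus strand. A further copy, Serpina1d, had 55 such bases. Only 120 bases of Serpina1e and the 250 bases before each other start were compared, so these lengths do not mark where the likeness ends. In the GENCODE annotation, used for positions elsewhere here, the models of Serpina1e and Serpina1b reach further upstream, to positions 103958975 and 103830373, so there these stretches lie inside the gene.
Serpina1e: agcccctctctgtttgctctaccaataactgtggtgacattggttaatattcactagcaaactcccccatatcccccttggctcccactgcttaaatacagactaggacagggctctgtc
Serpina1c: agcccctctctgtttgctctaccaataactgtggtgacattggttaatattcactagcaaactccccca
Serpina1b: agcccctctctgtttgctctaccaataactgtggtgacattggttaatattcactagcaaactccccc
Serpina1a: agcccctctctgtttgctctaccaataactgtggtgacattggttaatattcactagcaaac

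Progesterone receptor and its steroid receptor relatives bind a palindrome whose core can be written ACANNNTGT, which reads the same on both strands and overlaps no other motif searched here. Among genes that changed, 75 had an upstream entry, and 3 of them (4.0%) held the core in the 250 bases before the start. The share was 4.98% over 12018 tested genes with an entry and 6.76% over all 27025 genes with one. The holders were Mpi (chr9:57552934-57552972, minus strand), Myzap (chr9:71592501-71592539, minus strand) and Serpina1a (chr12:103863800-103863838, minus strand), shown with the match in capitals. A match in these letters is a description and not a binding site.
Mpi: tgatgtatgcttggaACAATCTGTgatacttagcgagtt
Myzap: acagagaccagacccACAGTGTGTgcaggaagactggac
Serpina1a: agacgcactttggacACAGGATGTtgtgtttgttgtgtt

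Depth was even, with 31872534 to 33078483 counts per library over the 12 libraries. PGR-A OE replicate 4 stood apart, at 43.5 on the first principal component of the 500 most variable genes (32.4% of the variance) against -24.4 to 8.73 in the other 11. Levels are given as CPM, the share of a gene in its scaled library total. PGR-A OE replicate 4 held 17 genes at 10 CPM or more that were at least 10-fold above the highest of the other 7 libraries compared, where control replicate 4 held 2, control replicate 1 held 1 and the other 5 held 0. These included the stratified epithelium keratin genes Krt5 (735 CPM against 0.179 to 0.803) and Krt14 (119 against 0.238 to 0.835) and the mucosal secreted glycoprotein gene Olfm4 (1056 against 0.127 to 0.322), chosen after their values were seen. None of the 17 passed the threshold. The summed level of decidual stroma markers was 789 to 1108 CPM in control replicates 1 to 3 and 5964 CPM in control replicate 4, and 686 to 1991 CPM with PGR-A OE. Smooth muscle markers were present in every library, with a sum below that of the fibroblast markers: 13708 to 17861 CPM in the controls and 18299.6 to 25230.0 CPM with PGR-A OE.

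Pgr itself, the gene named by the overexpression, checks the labels. It was at 142, 126, 110.5 and 106 CPM in control replicates 1 to 4 and at 166, 185, 194 and 255 CPM in PGR-A OE replicates 1 to 4. Every PGR-A OE library was above every control library, and replicate 4 held the highest value. The log2 change was 0.72 (SE 0.14, edgeR adjusted p = 0.0416), and a permutation test over the 8 libraries, exact and two-sided on log2 CPM, gave p = 0.0286, the smallest that 4 against 4 libraries allow. Without PGR-A OE replicate 4 the change was 0.58 (edgeR adjusted p = 0.0608), and of the 8 fits without a library only the one without PGR-A OE replicate 1 kept the call (edgeR adjusted p = 0.0475). The counts are per gene, so isoforms, and transcripts of the transgene and of the native gene, cannot be told apart.

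In all, 102 of 15561 genes tested (0.655%) passed an edgeR adjusted p of 0.05, and throughout a gene is said to rise or fall only if it passed. Of these, 75 rose (0.482% of genes tested) and 27 fell (0.174%). At an unadjusted p under 0.05 there were 2400 genes (15.4%), 7.56% higher and 7.87% lower. The rises were larger, with a median log2 change of 0.90 against -0.49 for the falls. Of the rises, 33 were at least 2-fold, against 6 of the falls, and 17 of either kind were under 1.5-fold. Rising genes had a median control level of 11.6 CPM and falling genes one of 47.6 CPM, where all genes tested had 20.4 CPM, and 14 rises but 0 falls started below 1 CPM. In each of the 102 genes the control and PGR-A OE values stayed apart, which was also so for 10.6% of all genes tested.

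**Figure D1:**
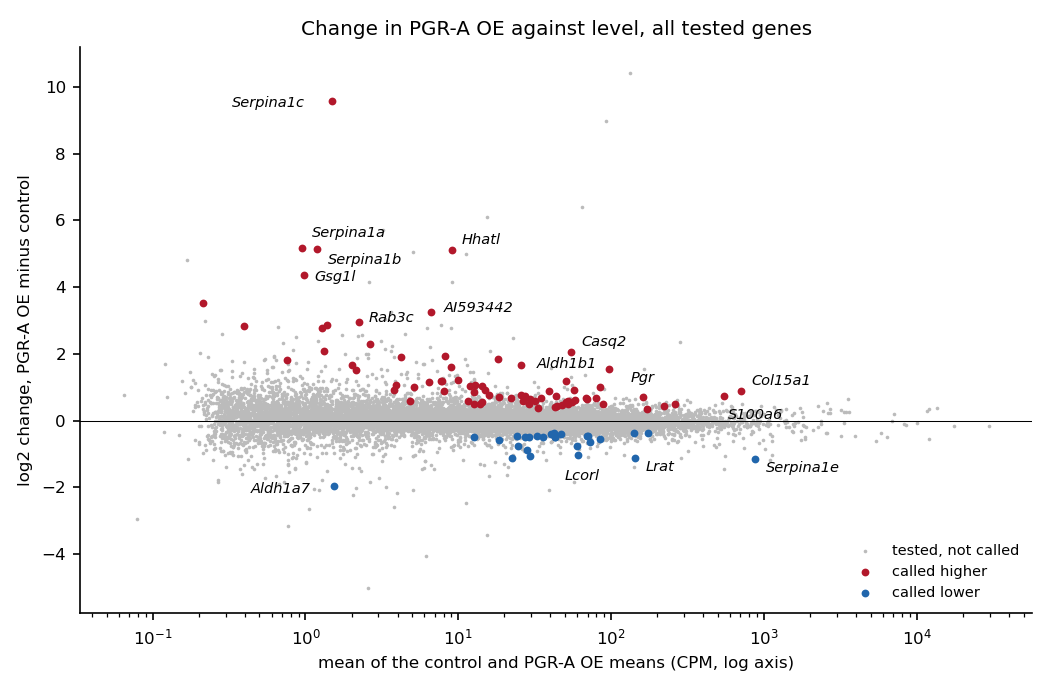
Each point is 1 of the 15561 genes tested, with its level (the mean of both group means in CPM, log axis) against its log2 change in PGR-A OE minus control. The 75 rises (red) reach low levels and large changes, while most of the 27 falls (blue) lie at moderate levels and small changes; some grey points with large changes are genes high in 1 library.

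Leaving out libraries thinned the calls. Every one of the 102 changes kept its sign, but with groups that do not overlap this was all but fixed in advance. The fits without control replicates 1, 2, 3 and 4 ended 70, 59, 37 and 34 of the 102 calls, and those without PGR-A OE replicates 1, 2, 3 and 4 ended 58, 50, 36 and 33. Of the 102 genes, 30 kept their call in all 8 of these fits, among them Hhatl, Wfdc6a, Wfdc6b, Aldh1b1, Serpina1a, Serpina1b, Serpina1c, Foxs1, Susd5, Casq2, Rab3c, AI593442, Enho, Gstm5, Wipf3, Whrn, Myzap, Ccdc92, Muc4, Vat1l, Smarcd3, Sctr, S100a6, Kcnt1, Adarb1, Cyld, Astn1, Zfp651 and Kcnip2. A further 10 kept it in none. DESeq2 called 564 genes (296 higher and 268 lower), all 102 among them, and a fit on the 8 libraries alone called 63, with 53 of the 102.

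Hhatl (chromosome 9, 121784016 to 121792507, minus strand) was nearly silent in control and present in each PGR-A OE library. Control replicates held 0.580, 0.318, 0.726 and 0.387 CPM and PGR-A OE replicates 22.8, 14.4, 14.3 and 18.7 CPM, a 34.7-fold rise (log2 5.12, SE 0.27, edgeR adjusted p = 2.27e-06). The lowest PGR-A OE library was thus far above the highest control, and PGR-A OE replicate 1 was highest. Its neighbours on chromosome 9 were looked at after the values were seen. Of 15 genes tested within 250 kb of its start, Hhatl itself included, 3 rose, beside 0.482% of all genes. Ccdc13, a coiled-coil protein gene 5120 bases beyond it, was at 0.0967, 0.159, 0.126 and 0 CPM in the controls and 0.757, 0.571, 0.417 and 1.06 CPM with PGR-A OE (log2 2.85, SE 0.57, edgeR adjusted p = 0.0447). Zfp651, a zinc finger gene 12274 bases to the other side, rose from 45.0 ± 3.94 to 66.5 ± 4.04 CPM (log2 0.56, SE 0.08, edgeR adjusted p = 0.0115). Klhl40, a muscle gene lying between Zfp651 and Hhatl, was at 0.147 CPM in the controls and 0.518 CPM with PGR-A OE and did not pass (log2 1.78, edgeR adjusted p = 0.0696). Ccdc13 kept its call in 1 of 8 fits without a library (edgeR adjusted p up to 0.164), and it shares exon bases with another gene model.

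**Figure D2:**
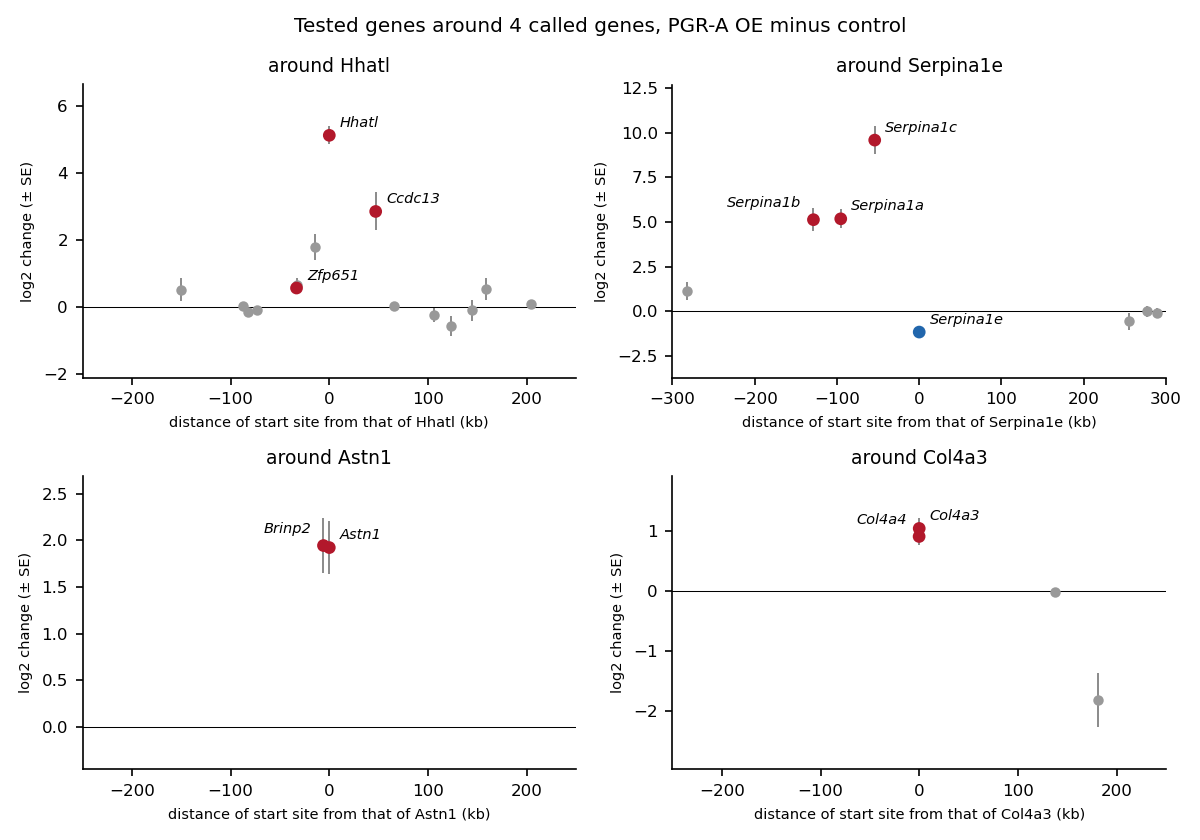
Panels show the tested genes around Hhatl, Serpina1e, Astn1 and Col4a3, with the distance of each start from that gene's start (kb) against the log2 change in PGR-A OE (bars: SE). Red and blue points passed and are named, grey points did not; Hhatl (5.12) has Ccdc13 (2.85) and Zfp651 (0.56) beside it, and in the alpha-1-antitrypsin cluster Serpina1e (-1.16) lies opposite to its 3 copies. The fitted value of Serpina1c, with 0 reads in control, rests on the prior count.

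Of 20 hedgehog pathway members tested, Hhatl alone rose (5%, beside 0.482% of all genes). Changes were positive in 16 (50.1% of all genes), and 7 were higher at an unadjusted p under 0.05 (7.56% of all genes). The median log2 change was 0.26 where that of all genes was 0.00. Hhip, an inhibitor that binds hedgehog ligands and is itself a target of the pathway, was at 1.28 ± 1.04 CPM in the controls and 7.73 ± 5.70 CPM with PGR-A OE (log2 2.597, edgeR adjusted p = 0.0696). Disp2, a relative of the transporter that releases hedgehog ligands, was at 4.58 ± 0.791 and 11.2 ± 5.08 CPM (edgeR adjusted p = 0.0732). Scube2, a secreted carrier of the ligands, was at 18.0 ± 1.10 and 30.9 ± 10.5 CPM (edgeR adjusted p = 0.0838). Without PGR-A OE replicate 4 the list's median was 0.19 and 3 members passed.

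Several metabolic enzyme genes rose, with Aldh1b1 among the firmest of all rises, and so did the gene of a secreted peptide. Aldh1b1 (chromosome 4, 45799022 to 45804604, plus strand), a mitochondrial aldehyde dehydrogenase, was at 27.0, 32.3, 32.1 and 32.5 CPM in control replicates and 78.6, 61.8, 61.1 and 81.8 CPM in PGR-A OE replicates (log2 1.19, SE 0.11, edgeR adjusted p = 0.000448). Control values lay close together apart from a lower replicate 1. Abat, which degrades the transmitter GABA, rose from 40.7 ± 4.37 to 60.0 ± 5.12 CPM (log2 0.56, SE 0.09). Mpi, which makes mannose phosphate for protein glycosylation, rose from 24.0 ± 1.88 to 33.7 ± 1.03 CPM (log2 0.49, SE 0.09). Lct, the lactase gene, stayed low but rose from 2.61 ± 0.478 to 4.94 ± 0.196 CPM (log2 0.92, SE 0.15), and Enho, the gene of the secreted peptide adropin, from 1.11 ± 0.209 to 3.19 ± 0.252 CPM (log2 1.52, SE 0.19). Aldh1b1 and Enho kept their calls in all 8 fits without a library, Abat and Lct in 7 and Mpi in 3 (edgeR adjusted p up to 0.0943). In the aldehyde dehydrogenase family 18 genes were tested, and besides the rise of Aldh1b1 a single gene, Aldh1a7, fell (11.1% changed, beside 0.655% of all genes).

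Signalling through cyclic nucleotides, the messengers by which relaxant hormones act on smooth muscle, held the largest number of rises of any function list. Of 51 genes tested, 5 rose (9.80%, beside 0.482% of all genes) and 0 fell, 38 changes were positive, and the median log2 change was 0.16. At the receptor step, Sctr, the secretin receptor (chromosome 1, 120006894 to 120063536, plus strand), was at 1.42, 0.604, 1.10 and 0.447 CPM in the controls and 3.93, 3.91, 5.01 and 4.85 CPM with PGR-A OE (log2 2.31, SE 0.32, edgeR adjusted p = 0.00553). At the synthesis step, Adcy5, an adenylyl cyclase, was at 50.5, 47.0, 59.7 and 60.2 CPM in the controls and 80.9, 74.1, 84.8 and 102 CPM with PGR-A OE (log2 0.65, SE 0.12, edgeR adjusted p = 0.0343). PGR-A OE replicate 4 was highest for Adcy5, and the groups did not overlap for either gene. At the effector step, Prkar2b, a regulatory subunit of protein kinase A, was at 9.67, 12.5, 11.1 and 13.2 CPM in the controls and 22.4, 20.9, 18.3 and 18.1 CPM with PGR-A OE (log2 0.78, SE 0.12, edgeR adjusted p = 0.0133). Pde3b and Pde7b, genes of phosphodiesterases that degrade cyclic AMP, rose too. Pde3b was at 41.9, 39.2, 43.8 and 39.8 CPM and then 59.6, 55.3, 55.6 and 79.2 CPM (log2 0.60, SE 0.11, edgeR adjusted p = 0.0256). Pde7b was at 21.0, 19.8, 23.8 and 19.2 CPM and then 32.4, 30.3, 27.8 and 35.9 CPM (log2 0.59, SE 0.10, edgeR adjusted p = 0.0248). The rises thus lay at the receptor, synthesis, effector and degradation steps, but the libraries did not move in step. PGR-A OE replicate 4 was the highest of its group for Adcy5, Pde3b and Pde7b and the lowest for Prkar2b. Adcy3, another cyclase, was at 13.96 ± 0.722 and 18.5 ± 2.02 CPM and did not pass (edgeR adjusted p = 0.113). Sctr kept its call in all 8 fits without a library, Prkar2b in 6, Pde3b in 4, Pde7b in 3 and Adcy5 in 2 (edgeR adjusted p up to 0.132). Between 1 and 4 of the 5 remained in those fits, the fewest without control replicate 1 or PGR-A OE replicate 1, and the median was 0.08 without PGR-A OE replicate 4.

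**Figure D3:**
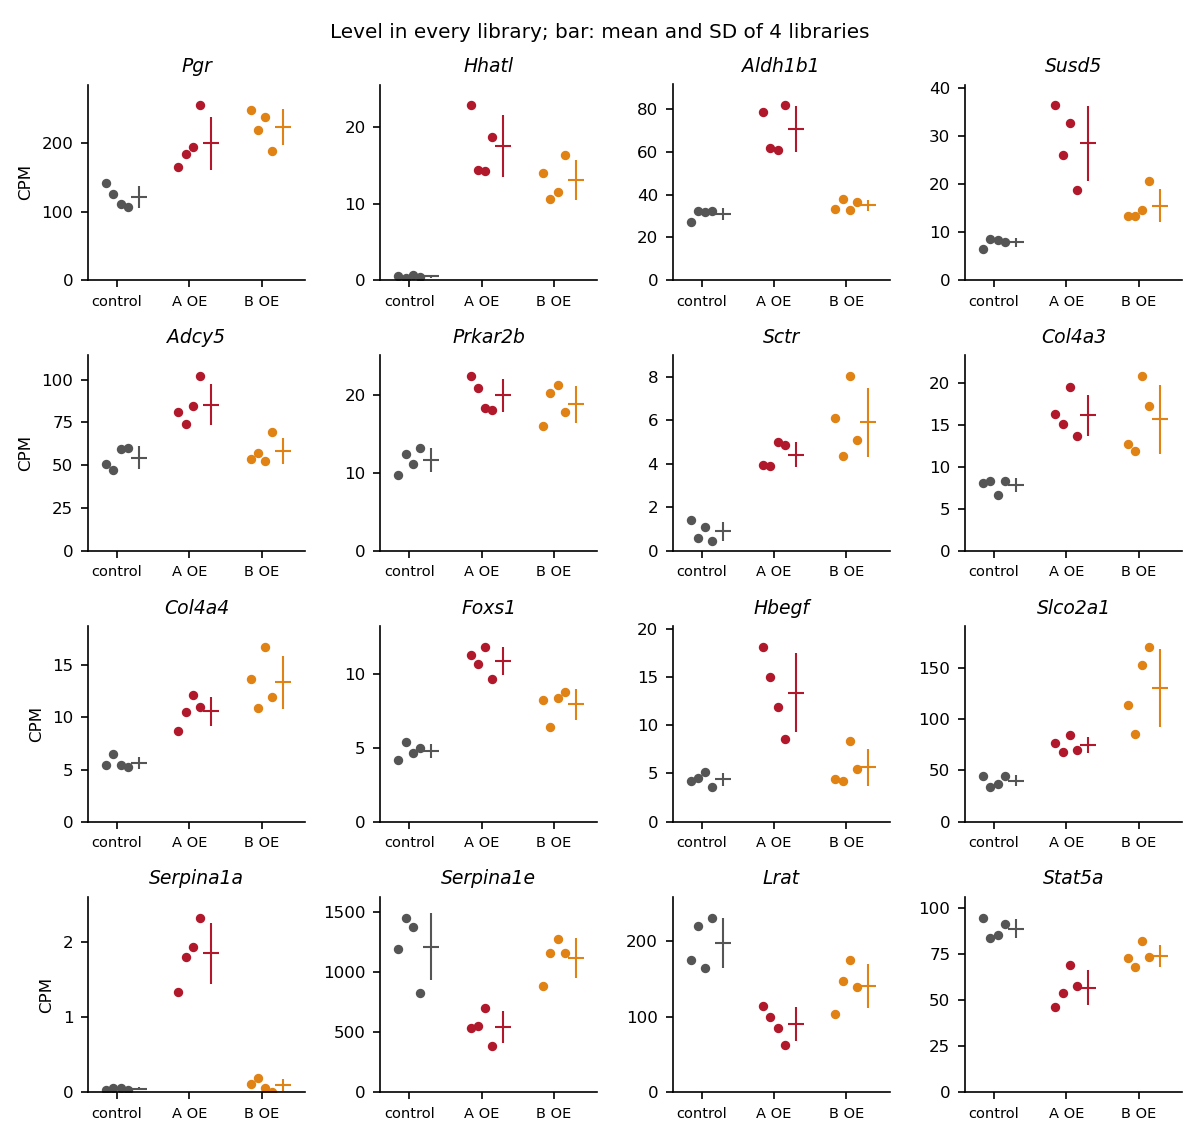
Each panel gives the CPM of 1 gene in every control, PGR-A OE (A OE) and PGR-B OE (B OE) library as points, with the mean and SD of 4 libraries beside them. In each panel the PGR-A OE points lie clear of the control points: above them for Pgr, Hhatl and the other rises, below them for Serpina1e, Lrat and Stat5a. The PGR-B OE points lie near control for several genes, Aldh1b1, Serpina1a, Adcy5, Hbegf and Serpina1e among them.

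Ion channels and ion handling changed in several genes that set the excitability of muscle and nerve. Of 60 potassium channel genes tested, 3 rose (5%, beside 0.482% of all genes) and 0 fell. Kcnt1, a potassium channel opened by sodium, was at 0.322, 0.382, 0.126 and 0.447 CPM in the controls and 2.42, 0.992, 2.50 and 3.00 CPM with PGR-A OE (log2 2.78, SE 0.40, edgeR adjusted p = 0.00835). Kcnip2, a calcium-binding partner of the transient outward channels, was at 4.45, 3.97, 4.99 and 2.41 CPM and 9.90, 7.85, 8.80 and 9.05 CPM (log2 1.17, SE 0.18, edgeR adjusted p = 0.0128). Kcnc4, a fast delayed-rectifier subunit, rose from 0.967 ± 0.242 to 3.05 ± 0.649 CPM (log2 1.66, SE 0.31, edgeR adjusted p = 0.0342). These genes were low in both groups, and PGR-A OE replicate 2 was the lowest of its group for all 3. Kcne2, a far more abundant accessory subunit, was at 415 ± 105 CPM in the controls and 221 ± 57.4 CPM with PGR-A OE and did not pass (edgeR adjusted p = 0.112). Casq2, which stores calcium in the sarcoplasmic reticulum, was at 13.6, 19.2, 32.2 and 19.0 CPM in the controls and 88.5, 71.6, 112 and 77.2 CPM with PGR-A OE. Slc24a3, an exchanger of sodium for calcium and potassium, rose from 45.9 ± 5.49 to 70.0 ± 5.53 CPM (log2 0.61, SE 0.12). It was the single rise among 281 genes tested of the solute carrier list (0.356%, beside 0.482% of all genes). That list, drawn up by symbol, leaves out the carrier gene Slco2a1, described below, which also rose. Asic4, a proton-gated channel relative, rose from 0.336 ± 0.0800 to 1.18 ± 0.474 CPM (log2 1.81, SE 0.34). In ATP signalling, the channel subunit gene P2rx2 fell, with 37.5, 42.7, 40.1 and 26.7 CPM in the controls and 19.0, 18.2, 18.6 and 23.9 CPM with PGR-A OE, while Enpp1, an enzyme that cleaves extracellular ATP, rose from 19.1 ± 3.11 to 32.4 ± 7.13 CPM (log2 0.76, SE 0.15). Kcnt1, Kcnip2 and Casq2 kept their calls in all 8 fits without a library, Enpp1 in 3, P2rx2 in 2, and Kcnc4, Slc24a3 and Asic4 in 1 each (edgeR adjusted p up to 0.164). The median log2 change of the potassium channel genes was 0.24, and 0.07 without PGR-A OE replicate 4. Their summed level went the other way, at 1167 to 1394 CPM in the controls and 892 to 1143 CPM with PGR-A OE, without overlap.

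Of 40 genes with a collagen symbol tested, which include Col4a3bp, a lipid transfer protein gene and no collagen, 4 rose (10.0%, beside 0.482% of all genes) and 0 fell. Changes were positive in 35 (50.1% of all genes), and 22 were higher at an unadjusted p under 0.05 (7.56% of all genes). The median log2 change was 0.36. Col4a3 was at 8.12, 8.30, 6.66 and 8.37 CPM in the controls and 16.3, 15.1, 19.5 and 13.7 CPM with PGR-A OE (log2 1.04, SE 0.18, edgeR adjusted p = 0.0212). Col4a4, whose start lies 72 bases from that of Col4a3, was at 5.42, 6.52, 5.398 and 5.27 CPM and 8.71, 10.5, 12.1 and 10.99 CPM (log2 0.90, SE 0.15, edgeR adjusted p = 0.0168). The basement membrane collagen Col15a1 was far more abundant, at 515, 433, 510.1 and 520.0 CPM in the controls and 844, 784, 767 and 1286 CPM with PGR-A OE. Its PGR-A OE replicate 4 stood above the others, and without that library the log2 change was 0.69 in place of 0.90. Col14a1, a collagen that sits on the surface of collagen fibrils, had 208, 214, 229.8 and 211 CPM and 334, 312, 272 and 298 CPM (log2 0.49, SE 0.10, edgeR adjusted p = 0.0417). Col15a1 and Col14a1 also belong to the fibroblast markers, whose summed level was 36269.8 to 37809.8 CPM in the controls and 41707 to 54094 CPM with PGR-A OE, and whether this had a part in the collagen changes was not tested. Between 0 and 3 of the 4 remained when a library was left out: Col4a4 kept its call in 7 fits, Col4a3 in 3, Col15a1 in 2 and Col14a1 in 1 (edgeR adjusted p up to 0.156), and none of them without control replicate 1.

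Of 16 endothelial markers tested 0 passed by edgeR (1 by DESeq2 and 0 by limma voom). At an unadjusted p under 0.05, 5 were higher and 1 lower, beside 7.56% and 7.87% of all genes. Of 8 pericyte markers 1 rose, Cspg4 (12.5%, beside 0.482% of all genes). The other genes named next were on neither list and were picked from the 102 for their known role. Foxs1, a forkhead factor of perivascular cells, was at 4.19, 5.37, 4.67 and 4.97 CPM in the controls and 11.3, 10.7, 11.9 and 9.66 CPM with PGR-A OE (log2 1.18, SE 0.13, edgeR adjusted p = 0.00122). Cspg4, the pericyte proteoglycan NG2, was at 60.9, 77.3, 81.3 and 76.5 CPM and 108, 100, 104 and 103 CPM (log2 0.49, SE 0.09, edgeR adjusted p = 0.0251). Ace, the enzyme that makes angiotensin II, was at 59.3, 56.1, 66.8 and 42.1 CPM and 123, 80.2, 148 and 97.5 CPM (log2 1.00, SE 0.19, edgeR adjusted p = 0.0401). Control libraries were tight for Foxs1, whereas PGR-A OE libraries spread widely for Ace. Vwa1, a matrix protein bound to perlecan, rose from 26.9 ± 4.44 to 42.8 ± 6.40 CPM (log2 0.67, SE 0.13), and Tmem204, an endothelial membrane protein gene, from 25.3 ± 2.27 to 37.7 ± 4.43 CPM (log2 0.58, SE 0.10). Susd5, a sushi-domain protein gene that kept its call in every fit without a library, was at 6.58, 8.59, 8.30 and 8.01 CPM in the controls and 36.3, 26.04, 32.7 and 18.7 CPM with PGR-A OE (log2 1.85, SE 0.20, edgeR adjusted p = 0.00157). Summed endothelial markers were at 1271 to 1363 CPM in the controls and 1373 to 1488 CPM with PGR-A OE, and pericyte markers, Cspg4 among them, at 829 to 993 CPM and 917 to 1103 CPM. Foxs1 kept its call in all 8 fits, Tmem204 in 5, Cspg4 in 4, Vwa1 in 3 and Ace in 1 (edgeR adjusted p up to 0.146).

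Secreted signals and their handling gave a few rises. Hbegf, a growth factor of the EGF family, was at 4.22, 4.55, 5.18 and 3.57 CPM in the controls and 18.1, 15.0, 11.9 and 8.61 CPM with PGR-A OE (log2 1.61, SE 0.26, edgeR adjusted p = 0.0147). Every PGR-A OE library was above control although they ranged widely, with replicate 4 lowest. Hbegf was the 1 member of 55 growth factor and receptor genes that changed (1.82%, beside 0.655% of all genes). Of 22 prostaglandin genes tested, 2 rose (9.09%, beside 0.482% of all genes). Ptgis, which makes the relaxant prostacyclin, was at 51.7, 57.7, 58.7 and 75.6 CPM and 93.8, 80.1, 107 and 108 CPM (log2 0.68, SE 0.12, edgeR adjusted p = 0.0287). Slco2a1, the carrier that takes prostaglandins into cells for breakdown, was at 44.3, 33.6, 36.9 and 44.8 CPM and 77.0, 68.3, 85.0 and 70.1 CPM (log2 0.91, SE 0.18, edgeR adjusted p = 0.0474). Nkd1 and Nkd2, inhibitors that bind Dishevelled in Wnt signalling, both rose. Nkd1 was at 21.3, 20.9, 19.8 and 19.8 CPM in the controls and 34.1, 32.0, 32.6 and 37.4 CPM with PGR-A OE (log2 0.73, SE 0.13, edgeR adjusted p = 0.0312), and Nkd2 rose from 10.2 ± 1.43 to 19.5 ± 3.42 CPM (log2 0.93, SE 0.17). Neither was on the Wnt list, of whose 39 tested members 0 passed by edgeR (2 by DESeq2, which called 564 of all 15561, and 0 by limma voom). At an unadjusted p under 0.05 there were 14 members, 10 of them higher, beside 15.4% of all genes and 7.56% higher. That list's median log2 change was 0.31, and Rspo1, a Wnt amplifier, was at 25.2 ± 4.96 and 37.9 ± 7.36 CPM (edgeR adjusted p = 0.113). Hbegf kept its call in 6 of 8 fits without a library, Ptgis and Nkd2 in 2 each, and Nkd1 and Slco2a1 in 0 (edgeR adjusted p up to 0.190).

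Protease inhibitors and secreted epithelial genes moved in both directions. Of 34 serpin genes tested, 3 rose and 1 fell (11.8% changed, beside 0.655% of all genes), and all 4 belong to the alpha-1-antitrypsin cluster. Serpina1a, at 0.0322, 0.0636, 0.0631 and 0.0298 CPM in control, was at 1.34, 1.80, 1.93 and 2.32 CPM with PGR-A OE (log2 5.19, SE 0.52, edgeR adjusted p = 0.000977). Serpina1b had 0.0645, 0, 0.126 and 0.0596 CPM and 2.97, 1.47, 1.77 and 3.11 CPM. Serpina1c gave 0 reads in all controls together and 394 with PGR-A OE. Set against a floor of 3 reads for the control group as a whole, it was at least 126-fold higher, a bound for counting error only. Serpina1e, far more abundant, fell from 1193, 1451, 1371 and 824 CPM in control replicates 1 to 4 to 532, 549, 704 and 383 CPM with PGR-A OE. The lowest control library, replicate 4, was still above the highest PGR-A OE library. The call of Serpina1e ended in 5 of 8 fits without a library (edgeR adjusted p up to 0.104) and those of its copies in none. Reads of copies this alike may be assigned to the wrong one, so their separate counts are uncertain. The other members of the liver-type list gave 0 further calls.

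Wfdc6a and Wfdc6b, neighbours that encode small inhibitors with a whey acidic protein domain, were 2 of 12 such genes tested (16.7%, beside 0.482% of all genes). Wfdc6a was at 0.451, 0.445, 0.631 and 0.476 CPM in the controls and 2.39, 2.01, 2.15 and 2.06 CPM with PGR-A OE, and Wfdc6b at 0.0322, 0.0318, 0.0316 and 0.0298 CPM and 0.495, 0.331, 0.385 and 0.382 CPM (log2 3.52, SE 0.45, edgeR adjusted p = 0.00434). The control value of Wfdc6b came from single reads, and reads may be split between these alike genes. Muc4, a membrane mucin of epithelium, was at 12.2, 13.9, 15.0 and 8.43 CPM in the controls and 23.2, 49.2, 46.6 and 37.3 CPM with PGR-A OE (log2 1.66, SE 0.23, edgeR adjusted p = 0.00553). It spread widely among PGR-A OE libraries, with replicate 1 lowest, and summed epithelial markers were at 2171 to 3063 CPM in the controls and 2086 to 3488 CPM with PGR-A OE, overlapping.

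Of 35 striated muscle genes tested 2 rose, Hhatl and Casq2 (5.71%, beside 0.482% of all genes), and of 11 skeletal muscle markers 0 passed by edgeR (0 before adjustment, p under 0.05; 0 by DESeq2 and 0 by limma voom). The next 6 genes were on no list and were picked from the 102 for roles in muscle or the cell skeleton. Myzap, a junction protein of heart muscle, was at 14.1, 14.5, 14.6 and 13.4 CPM in the controls and 20.8, 22.2, 22.5 and 26.4 CPM with PGR-A OE (log2 0.70, SE 0.09, edgeR adjusted p = 0.00553). Smarcd3, the chromatin remodelling subunit that muscle and heart cells use, was at 8.80, 9.41, 8.30 and 9.02 CPM and 16.9, 13.3, 15.0 and 19.9 CPM (log2 0.87, SE 0.12, edgeR adjusted p = 0.00553). Wipf3, an actin regulator, was at 6.25, 5.44, 6.41 and 5.57 CPM and 17.4, 15.4, 11.4 and 11.2 CPM. Each was tight among controls. Filip1, which binds filamin, rose from 27.3 ± 3.96 to 50.9 ± 11.5 CPM (log2 0.90, SE 0.14), and Dysf, which reseals muscle membranes, from 43.1 ± 4.20 to 61.3 ± 8.10 CPM (log2 0.51, SE 0.10). S100a6, a small calcium-binding protein gene among the most abundant that changed, was at 375, 359, 437 and 451 CPM in the controls and 668, 611, 742 and 699.8 CPM with PGR-A OE (log2 0.74, SE 0.10, edgeR adjusted p = 0.00639). On the striated list, Actc1, cardiac actin, was at 8.72 ± 3.53 CPM in the controls and 3.25 ± 1.16 CPM with PGR-A OE, and Ankrd1, a stretch-responsive gene, at 2.97 ± 1.48 and 10.5 ± 5.64 CPM, and neither passed (edgeR adjusted p = 0.114 for both). Dysf kept its call in 2 and Filip1 in 7 of 8 fits without a library (edgeR adjusted p up to 0.173).

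Of 46 neuronal and vesicle genes tested, 1 rose, Rab3c (2.17%, beside 0.482% of all genes). Of 11 Schwann and nerve markers 0 passed by edgeR (0 by DESeq2 and 0 by limma voom), and 1 was higher at an unadjusted p under 0.05, beside 7.56% of all genes. The others named next were on neither list and were picked from the 102. Astn1 and Brinp2 lie head to head 5947 bases apart on chromosome 1, and were the 2 genes tested within 250 kb. Astn1, which guides migrating neurons along glia, was at 1.64, 1.81, 2.12 and 1.43 CPM in the controls and 4.69, 4.45, 7.45 and 9.99 CPM with PGR-A OE (log2 1.92, SE 0.28, edgeR adjusted p = 0.00943). Brinp2 was at 3.42, 3.72, 4.58 and 1.82 CPM and 9.12, 9.50, 14.1 and 19.3 CPM (log2 1.94, SE 0.30, edgeR adjusted p = 0.0117). In both genes PGR-A OE replicates 3 and 4 were highest and replicates 1 and 2 lowest. Rab3c, a vesicle GTPase, was at 0.516, 0.286, 0.884 and 0.328 CPM and 5.56, 3.22, 3.60 and 3.44 CPM, and AI593442, a gene of unassigned function, at 0.677, 1.05, 2.34 and 0.893 CPM and 12.03, 8.48, 13.9 and 13.5 CPM. Whrn, a scaffold of hair cells and photoreceptors, was at 7.09, 8.49, 10.4 and 7.15 CPM and 18.6, 17.2, 19.0 and 15.2 CPM (log2 1.08, SE 0.14, edgeR adjusted p = 0.00553). Gsg1l, a glutamate receptor partner, had 0.0645, 0.0954, 0.0316 and 0.149 CPM and 0.903, 0.812, 0.578 and 5.14 CPM (log2 4.38, SE 0.82, edgeR adjusted p = 0.0343). Here PGR-A OE replicate 4 held most of the signal, and without it the log2 change was 3.10 with the call kept (edgeR adjusted p = 0.0108). Summed Schwann and nerve markers were at 375 to 418 CPM in the controls and 349.9 to 462 CPM with PGR-A OE, overlapping.

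Regulators of protein and RNA made up smaller rises. Cyld, a deubiquitinase that restrains NF-kappaB signalling, was at 32.0, 33.4, 30.2 and 33.5 CPM in the controls and 55.0, 59.9, 49.4 and 53.1 CPM with PGR-A OE (log2 0.75, SE 0.11, edgeR adjusted p = 0.00835). Adarb1, an enzyme that edits adenosine to inosine in RNA, was at 23.5, 21.5, 23.01 and 23.2 CPM and 36.3, 34.4, 33.5 and 39.9 CPM (log2 0.66, SE 0.10, edgeR adjusted p = 0.00835). Eef2k, the kinase that slows translation elongation, was at 52.7 ± 5.78 and 84.6 ± 14.02 CPM (log2 0.68, SE 0.12), and Pgbd5, a gene derived from a transposase, at 2.52 ± 0.539 and 5.29 ± 0.510 CPM (log2 1.07, SE 0.19). Genes of interferon-related protein modification rose by little, Uba7, the activating enzyme of the modifier ISG15, from 40.3 ± 1.88 to 55.6 ± 6.87 CPM and Parp10 from 28.9 ± 1.15 to 37.6 ± 2.86 CPM. Among abundant genes, Kif1c, a kinesin motor, rose from 188 ± 7.43 to 253 ± 7.83 CPM and Cenpb, a centromere protein, from 151 ± 4.50 to 192 ± 4.05 CPM. In these abundant genes the change was small, at a log2 of 0.43 for Kif1c (SE 0.08, edgeR adjusted p = 0.0392) and 0.35 for Cenpb (SE 0.06, edgeR adjusted p = 0.0181). Cyld and Adarb1 kept their calls in all 8 fits without a library, Eef2k in 5, Pgbd5 and Cenpb in 4 each, Uba7 in 3, Parp10 in 2 and Kif1c in 0 (edgeR adjusted p up to 0.150).

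The 27 falls had fewer large changes. In retinoid metabolism 2 of 29 genes tested fell (6.90%, beside 0.174% of all genes) and 0 rose. Lrat, which stores retinol as its ester, was at 175, 219.9, 164 and 231 CPM in the controls and 114, 100.1, 84.6 and 63.1 CPM with PGR-A OE. Aldh1a7, a paralog of the enzyme that makes retinoic acid, was at 3.51, 1.49, 1.64 and 3.22 CPM and 0.553, 0.451, 0.739 and 0.764 CPM. The groups stayed apart for both, with control replicates 2 and 3 lower than 1 and 4 for Aldh1a7. Rdh11, a retinal reductase, was at 119.9 ± 26.6 and 78.1 ± 10.5 CPM and did not pass (edgeR adjusted p = 0.120). Aldh1a7 kept its call in 5 of 8 fits without a library (edgeR adjusted p up to 0.0714) and Lrat in 3 (up to 0.0943), and reads of Aldh1a7 may be split with its paralog Aldh1a1.

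In cytokine signalling 2 of 50 JAK-STAT genes tested fell (4.00%, beside 0.174% of all genes) and 0 rose. The median log2 change of 0.01 was near 0 and ranged over fits without a library from -0.02 to 0.03. Stat5a, a transcription factor of prolactin and cytokine signalling, was at 94.9, 83.8, 85.5 and 91.5 CPM in the controls and 46.4, 54.0, 69.3 and 57.7 CPM with PGR-A OE. Il5ra, the interleukin-5 receptor chain, was at 37.1, 48.0, 35.8 and 36.7 CPM and 20.4, 19.9, 23.2 and 12.6 CPM. All PGR-A OE libraries lay below the controls, replicate 3 closest for Stat5a and replicate 4 lowest for Il5ra. Jak2, the kinase that activates Stat5a, was at 330.0 ± 63.4 and 211 ± 15.2 CPM and did not pass (log2 -0.64, edgeR adjusted p = 0.0547). Osmr and Lifr, receptors of the interleukin-6 family, were at 102 ± 10.9 and 71.5 ± 9.40 CPM (edgeR adjusted p = 0.0758) and at 585 ± 125 and 351 ± 71.4 CPM (edgeR adjusted p = 0.146). Stat5a kept its call in 6 of 8 fits without a library (edgeR adjusted p up to 0.0830) and Il5ra in 0 (up to 0.185). Summed decidual markers overlapped between the groups, as given above, and their part in these falls was not tested.

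Gstm5, a glutathione transferase, was the firmest fall, at 74.8, 73.5, 69.1 and 81.9 CPM in the controls and 41.1, 42.2, 45.5 and 48.6 CPM with PGR-A OE (log2 -0.76, SE 0.10, edgeR adjusted p = 0.00542). It was the 1 change among 20 glutathione transferase genes tested (5%, beside 0.655% of all genes). Gstm5 was also the 1 fall kept in all 8 fits without a library. Lcorl, a nuclear receptor corepressor relative tied to body size, was at 84.2, 98.1, 65.4 and 74.9 CPM and 39.4, 40.5, 45.0 and 34.2 CPM (log2 -1.02, SE 0.17, edgeR adjusted p = 0.0182). Chst11, which sulfates chondroitin, was at 102, 92.4, 97.6 and 109.9 CPM and 72.6, 59.5, 64.1 and 76.8 CPM (log2 -0.56, SE 0.09, edgeR adjusted p = 0.0130). Of the 27 falls, 17 were under 1.5-fold. Zbtb33, the methyl-DNA binding factor Kaiso, was at 41.0, 40.3, 34.4 and 36.4 CPM and 27.4, 26.7, 28.2 and 27.5 CPM (log2 -0.47, SE 0.07, edgeR adjusted p = 0.0117). Tnks2, a tankyrase, fell from 198 ± 12.6 to 152 ± 3.87 CPM (log2 -0.38, SE 0.07), and Cers2, a ceramide synthase, from 159 ± 8.64 to 122 ± 6.99 CPM (log2 -0.38, SE 0.07). In the secretory pathway, Sec24a, a cargo adaptor of vesicles leaving the endoplasmic reticulum, fell from 41.7 ± 1.64 to 29.6 ± 1.99 CPM, and Tmem258, a subunit of the N-glycosylation enzyme, from 50 ± 3.83 to 35.6 ± 3.90 CPM. RNA-binding and processing genes among the falls were Cpeb2 (log2 -0.58), Cstf3 (-0.39) and Rbm15 (-0.48). Chst11 and Zbtb33 kept their calls in 7 of 8 fits without a library, Tmem258 in 4, Lcorl in 3, Tnks2, Cers2, Sec24a and Cpeb2 in 1 each, and Cstf3 and Rbm15 in 0 (edgeR adjusted p up to 0.166).

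Some lists described by function leaned one way without a member passing by edgeR. Over all genes tested, 50.1% of changes were positive, and 7.56% were higher and 7.87% lower at an unadjusted p under 0.05. DESeq2 called 564 of the 15561. In smooth muscle contraction 0 of 36 genes tested passed (11 higher before adjustment (p under 0.05); 5 by DESeq2 and 0 by limma voom), while 35 changes were positive, with a median log2 change of 0.27. Myh11, the gene whose promoter names the Cre driver, was at 2533, 3094, 2947 and 2423 CPM in the controls and 3267, 3706, 4102 and 6316 CPM with PGR-A OE (log2 0.66, SE 0.19, edgeR adjusted p = 0.139). Without PGR-A OE replicate 4 the list's median was 0.14. In antigen presentation 0 of 20 passed (9 higher before adjustment (p under 0.05); 1 by DESeq2, 0 by limma voom), with 19 positive and a median of 0.40. Of 24 H2 genes 1 rose (4.17%, beside 0.482% of all genes), H2-T10, which is annotated as a polymorphic pseudogene. It went from 3.43 ± 0.479 to 6.85 ± 1.78 CPM (log2 1.00, SE 0.20), and it kept its call in 2 of 8 fits (edgeR adjusted p up to 0.172). In the interferon response 0 of 43 passed (14 higher before adjustment (p under 0.05); 3 by DESeq2, 0 by limma voom), with 40 positive and a median of 0.28, or 0.39 without PGR-A OE replicate 4. In the unfolded protein response 0 of 28 passed (5 lower before adjustment (p under 0.05); 0 by DESeq2 and by limma voom), with 26 negative and a median of -0.16, or -0.05 without PGR-A OE replicate 4. The genes classed with contraction at labour were more evenly split, with 17 positive and 10 negative changes and a median of 0.08. They gave 0 calls of 27 (1 by DESeq2, 0 by limma voom), and 4 had an unadjusted p under 0.05, beside 15.4% of all genes. Oxtr, the oxytocin receptor, was at 6.22, 7.70, 9.66 and 7.80 CPM in the controls and 4.84, 4.42, 3.37 and 14.1 CPM with PGR-A OE (edgeR adjusted p = 0.810).

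**Figure D4:**
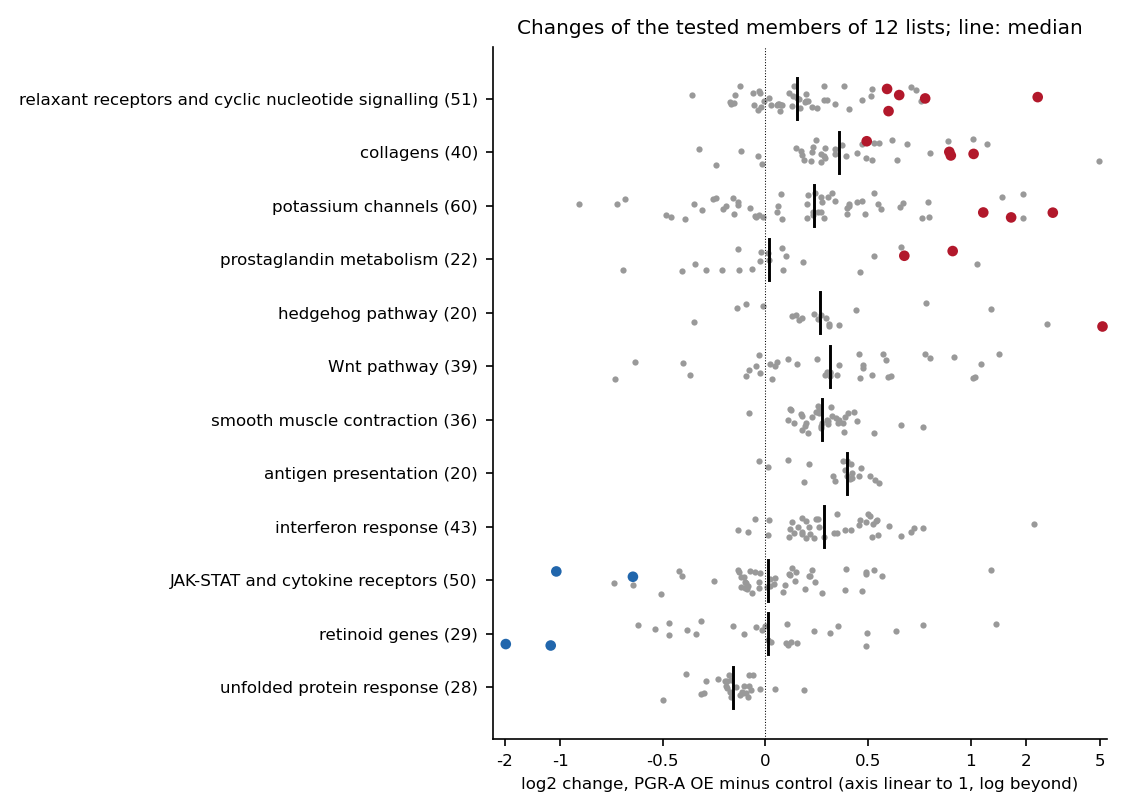
Each row is a list with its number of tested members, and each point is the log2 change of 1 member in PGR-A OE minus control (axis linear to 1, log beyond); red and blue points passed, and the black line is the median. Cyclic nucleotide, collagen and potassium channel genes hold 5, 4 and 3 rises, while smooth muscle, antigen presentation and interferon genes lie mostly right of 0 with no member passing.

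Marker lists of other cell types give the setting of these changes. Summed smooth muscle, fibroblast and endothelial markers did not overlap between the groups, as given above, and each was higher in PGR-A OE. Cardiac markers were at 35.4 to 64.7 CPM in the controls and 114 to 152 CPM with PGR-A OE. That list holds Hhatl and Casq2, which had already been called as rises, so its separation is no separate result. Casq2 alone was at 13.6 to 32.2 CPM in the controls and 71.6 to 112 CPM with PGR-A OE. The yolk sac and liver-type list, which holds the Serpina1 genes, had a lower sum in every PGR-A OE library. The sums were 1024 to 1627 CPM in the controls and 537 to 889 CPM with PGR-A OE. Most of this was Serpina1e, with 1193 of 1341 CPM in control replicate 1 and 532 of 709 CPM in PGR-A OE replicate 1. By gene, 8 of the list's 14 tested members had positive changes and 6 negative ones, with a median log2 change of 0.22. Granulocyte and mast cell markers were at 20.4 to 60.9 CPM in the controls and 55.8 to 112 CPM with PGR-A OE, overlapping. Within them the mast cell protease genes Mcpt4 (5.47 ± 3.60 and 14.2 ± 5.38 CPM, edgeR adjusted p = 0.141) and Cma1 (7.59 ± 4.63 and 17.5 ± 6.07 CPM, edgeR adjusted p = 0.168) did not pass. Trophoblast markers, at 59.9 to 165 CPM in the controls and 67.1 to 98.9 CPM with PGR-A OE, also overlapped. The part of cell makeup in the changes was not tested.

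**Figure D5:**
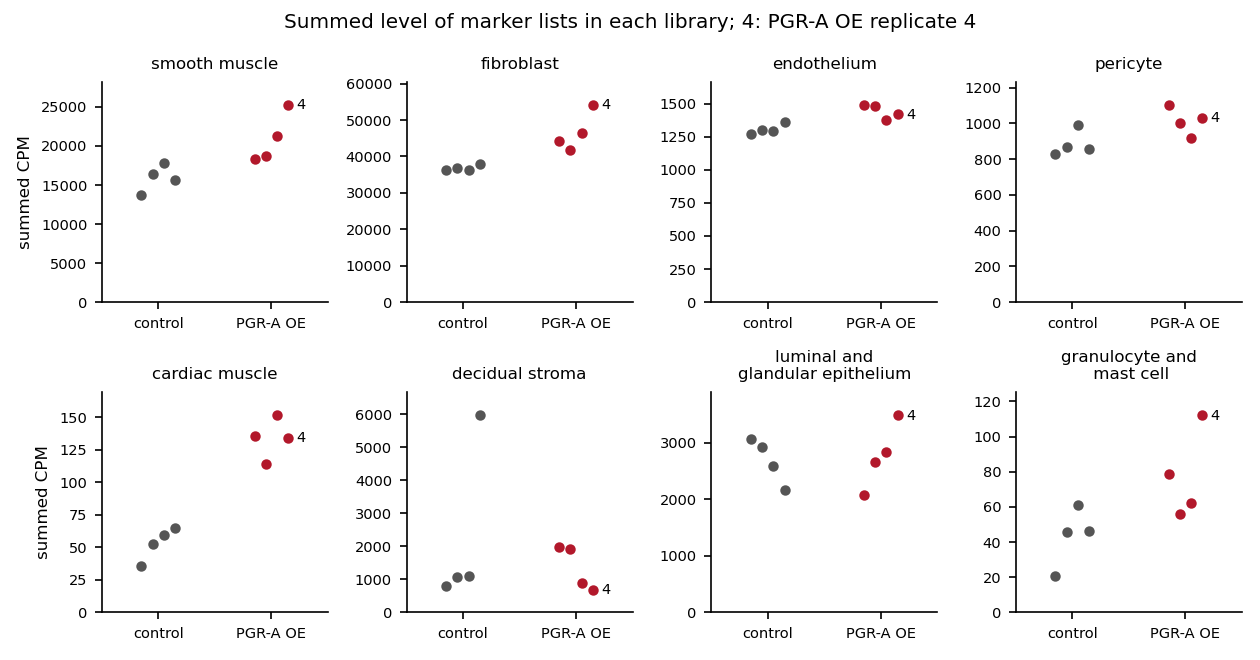
Points give the summed CPM of a marker list in each of the 4 control and 4 PGR-A OE libraries, with PGR-A OE replicate 4 numbered. Smooth muscle, fibroblast, endothelial and cardiac lists are higher in every PGR-A OE library than in any control library, the cardiac list holding the called rises Hhatl and Casq2. Pericyte, decidual, epithelial and granulocyte and mast cell lists overlap, control replicate 4 being far above the rest for decidual stroma.

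PGR-B OE shares its controls with PGR-A OE, so changes against control are only set side by side, for 7 genes among those of lowest p in PGR-A OE, which were thereby chosen for their change there. On the log2 scale Hhatl changed by 5.12 in PGR-A OE and was at 4.70 in PGR-B OE, Wfdc6a by 2.09 and at 1.48, Aldh1b1 by 1.19 and at 0.18, Serpina1a by 5.19 and at 0.93, Foxs1 by 1.18 and at 0.73, Susd5 by 1.85 and at 0.98, and Casq2 by 2.06 and at 1.05. Tested directly, 18 genes (0.116%) differed between the overexpression groups, 7 of them among the 102. Aldh1b1 was at 35.1 ± 2.55 CPM in PGR-B OE, lower than in PGR-A OE (log2 difference -1.01, SE 0.11, edgeR adjusted p = 0.00204). Serpina1a (-4.25), Serpina1b (-5.33) and Serpina1c (-7.26) were lower in PGR-B OE as well, as were Adarb1 (-0.60) and Pgbd5 (-1.22). Aldh1a7 was higher there, at 4.72 ± 0.956 CPM (2.91, SE 0.32, edgeR adjusted p = 0.00204). For Serpina1e the difference did not pass (1.05, SE 0.20, edgeR adjusted p = 0.115), nor for Hbegf (-1.25, SE 0.25, edgeR adjusted p = 0.134).

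Of the 102 genes, 39 share exon bases with another gene model, 34 on the opposite strand, and whether the counting used strand is not given in the sources used here. Among the genes described, this makes the counts of Enho, Wfdc6b, Gstm5, Wipf3, Muc4, Smarcd3, Zfp651, Zbtb33, Cenpb, Lcorl, Stat5a, Col4a3, Col15a1, Ptgis, Slco2a1, Ace, Vwa1, Uba7, Parp10, Eef2k, Kif1c, Asic4, Dysf, H2-T10, Cers2, Cpeb2, Tmem258, Serpina1c and Ccdc13 uncertain.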

How the data were processed

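Uterine RNA was extracted with Trizol and RNeasy columns and made into TruSeq RNA libraries read as 75 bp pairs, per the labels' protocols. The deposited table holds whole-number read counts per gene for the 12 libraries, used as the authors deposited them, beside a column of gene length in bases. The submitters' processing notes list Bowtie2 2.2.5, STAR 2.7.0f, Subread 1.6.4 with featureCounts, and DESeq2, with mm10 and GRCm38 as builds. What each tool did, whether strand was used and how reads matching several places were counted is not stated in the labels.

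From the counts, CPM (a gene's share of its library's TMM-scaled total) and tests were computed in R 4.3.3 with edgeR 4.0.16: the robust quasi-likelihood test on all 12 libraries, genes filtered by filterByExpr, no covariate, and Benjamini-Hochberg adjustment over 15561 genes with a threshold of 0.05. The fit was tested on simulated data. Totals of 31872534 to 33078483 counts per library give similar precision. Of 24964 genes, 4393 had no count. DESeq2 1.42.0, limma voom 3.58.1, other scalings and filters, fewer libraries and a replicate block were the alternatives. Positions are those of the GENCODE annotation of GRCm38. Upstream sequences were matched by symbol to RefSeq with pandas 2.3.3 and aligned with Biopython 1.88.

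The comparison, its members and the gene lists were chosen with earlier results of these data known. Named genes passed the threshold, belong to the 10 most abundant that did, or are up to 4 further list members of lowest p, and other genes were chosen after their values were seen. Gene models without an annotated name (4 of the 102) were only counted, and the results of some genes are not reported here. Within each group, every pair of libraries differed by more than counting noise.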

Additional observations from a re-analysis of the deposited data

Results flagged for a closer look

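Each result here has a library far from the other 3 of its group, by Dixon's ratio of gap to range, or differed between the overexpression groups by a direct test. Of 300 groups of 4 libraries looked at, 21 had such a library, where chance gives about 1 in 20, and 8 of the 21 were PGR-A OE replicate 4.

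Among genes that rose, Wfdc6a was highest in control replicate 3 (0.631 CPM, others 0.445 to 0.476) and Aldh1b1 lowest in control replicate 1 (27.0 CPM, others 32.1 to 32.5). Rab3c was highest in PGR-A OE replicate 1 (5.56 CPM, others 3.22 to 3.60). Col4a4 was highest in control replicate 2 (6.52 CPM) and Col4a3 lowest in control replicate 3 (6.66 CPM). Gsg1l was highest in PGR-A OE replicate 4 (5.14 CPM, others 0.578 to 0.903). Col15a1 was lowest in control replicate 2 (433 CPM) and highest in PGR-A OE replicate 4 (1286 CPM, others 767 to 844).

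Among genes that fell, P2rx2 was highest in PGR-A OE replicate 4 (23.9 CPM), Cstf3 in control replicate 1 (48.6 CPM) and Il5ra in control replicate 2 (48.0 CPM). Among genes that did not pass, Adcy3 was highest in control replicate 4 (15.0 CPM), Hhip in control replicate 3 (2.81 CPM), and Scube2 (46.4 CPM) and Oxtr (14.1 CPM) in PGR-A OE replicate 4.

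Summed decidual stroma markers (5964 CPM) and trophoblast markers (165 CPM) were highest in control replicate 4. B cell and plasma cell markers (88.6 CPM), erythroid markers (33.0 CPM) and Schwann and nerve markers (462 CPM) were highest in PGR-A OE replicate 4, and Schwann and nerve markers lowest in control replicate 2 (375 CPM).

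As PGR-B OE minus PGR-A OE on the log2 scale, by edgeR, Aldh1b1 differed by -1.01, Serpina1a by -4.25, Serpina1b by -5.33, Serpina1c by -7.26, Adarb1 by -0.60, Pgbd5 by -1.22 and Aldh1a7 by 2.91.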

How the results depend on the processing

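The count of 102 genes became 564 with DESeq2 (296 higher, 268 lower) and 63 on the 8 libraries alone, and stayed between 86 and 106 with RLE or upper quartile scaling, limma voom and other filters. Leaving out a library gave 32 (without control replicate 1) to 99 genes (without control replicate 4). For PGR-B OE against PGR-A OE the count of 18 became 126 with DESeq2, 10 on the 8 libraries, 38 without replicate 4 of control and PGR-A OE, and 11 to 31 without a library, with 31 for PGR-A OE replicate 4. The log2 change of Pgr was 0.72 on the 8 libraries (edgeR adjusted p = 0.0902), 0.52 without replicate 4 of both groups (edgeR adjusted p = 0.0906), and 0.58 to 0.81 without a library (edgeR adjusted p 0.0475 to 0.127). With a replicate block, 69 genes passed against control, 11 between the overexpression groups, and Pgr was at 0.72 (edgeR adjusted p = 0.122). Same-numbered control and PGR-A OE libraries correlated at -0.26, -0.17, 0.05 and -0.24 in their deviations, so no pairing by number showed. Deviations from means of 4 libraries, with PGR-A OE replicate 4 far apart, cannot exclude one. Each of the 102 changes kept its sign in every alternative that tested it, which groups that do not overlap all but fix in advance. List medians near 0, that of the JAK-STAT genes among them, changed sign, and the cause of the differences between settings was not tested. Depth limits genes under 1 CPM, whose values rest on few reads.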

Other observations

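Values outside the comparisons were high in single libraries. In PGR-A OE replicate 4, Clca1, a secreted regulator of mucus, was at 504 CPM against at most 3.40 CPM in the other 7 libraries. Col17a1, a collagen of the junction between stratified epithelium and its basement membrane, was at 84.1 CPM there against at most 1.20 CPM. Neither passed the threshold, and both were chosen after their values were seen.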
